A study of Homo sapiens with 12 samples.

Results

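In all, 10 genes of the YAP/TAZ branch of the Hippo pathway were followed through CPT-11 treatment of HCT-116 cells, which are human colorectal carcinoma cells. They were taken by gene name from a table of 59172 features, and all 10 were found: the effectors YAP1, WWTR1 (which encodes TAZ) and TEAD1, and the target or feedback genes CTGF, CYR61, ANKRD1, AMOTL2, LATS2, AXL and AJUBA. Of these, 9 had enough reads to be tested and ANKRD1 did not. The groups were SHP2-silenced cells given CPT-11 for 24 h (shSHP2+CPT-11), wild-type cells pretreated with lovastatin for 4 h and given CPT-11 for 24 h, wild-type cells given CPT-11 alone for 24 h, and untreated wild-type cells, with 3 RNA-seq libraries each. CPT-11 is irinotecan, a prodrug of a topoisomerase I poison, lovastatin blocks the sterol enzyme HMG-CoA reductase, and SHP2 is the phosphatase encoded by PTPN11. The treatment label of the silenced samples also names a 4 h lovastatin step that is absent from the sample titles and from the treatment protocol, and the samples were grouped by title. The sources used here do not give the hairpin sequence, the number of clones or the drug doses. No library with a control hairpin, with lovastatin alone, or silenced without CPT-11 was analysed here.

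YAP and TAZ are transcriptional coactivators that have no DNA-binding domain of their own and reach their targets through the TEAD factors. The Hippo kinases MST1 and MST2 activate LATS1 and LATS2, which phosphorylate YAP and TAZ and so keep them out of the nucleus. In epithelium the pathway links cell contact, polarity and tension to growth, and YAP is known for its part in intestinal regeneration and colorectal cancer. Its activity is set largely by phosphorylation and location of the proteins, which RNA levels do not show.

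Promoter sequence was taken from RefSeq (GRCh38.p14) for the 8 of the 10 genes that had an entry, in 12 windows that run from 250 bases before the annotated start to 50 after it. The letters GGAATG, the core of the TEAD binding motif, were searched on both strands (CATTCC on the other). Of 35116 windows of the same length over all genes, 14.0% held at least 1 match, 1.37% at least 2 and 0.128% at least 3. CTGF had 3 matches, starting at -169, -104 and -95 from the start (position 0), and ANKRD1 had 2, starting at -220 and -128. YAP1 and LATS2 had 1 match each in their single window. AJUBA, AMOTL2 and AXL have 2 windows each. The first, at the outer start of the gene, had no match. The second, at a start inside the gene, had 1 match. Which of these starts the cells used was not tested. WWTR1 had none in either of its 2 windows. In all, 7 of the 12 windows held a match. The AP-1 letters TGANTCA, with any base at N, were searched alongside because AP-1 often lies near TEAD at enhancers. This palindrome was found in 1 of the 12 windows, that of ANKRD1, and in 7.71% of all windows. The match in ANKRD1 read TGATTCA, so no window of these genes held the forms with C or G at N. The share of all windows was counted with any base at N. The bases before the start are shown whole for CTGF and ANKRD1, which held more than 1 match, and as 20 bases to either side of the match for 4 other genes, each read along the strand of the gene, with the TEAD letters in capitals:
CTGF (chr6:131951373-131951622, minus strand): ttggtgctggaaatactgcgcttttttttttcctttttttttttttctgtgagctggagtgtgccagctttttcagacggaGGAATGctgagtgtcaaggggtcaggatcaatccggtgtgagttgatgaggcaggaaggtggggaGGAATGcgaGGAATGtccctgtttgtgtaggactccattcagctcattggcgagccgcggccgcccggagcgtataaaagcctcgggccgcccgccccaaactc
ANKRD1 (chr10:90921088-90921337, minus strand): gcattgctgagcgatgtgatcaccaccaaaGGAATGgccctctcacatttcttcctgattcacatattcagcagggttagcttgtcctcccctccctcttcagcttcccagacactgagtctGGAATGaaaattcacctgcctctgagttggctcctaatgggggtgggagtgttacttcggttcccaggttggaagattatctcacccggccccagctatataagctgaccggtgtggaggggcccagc
YAP1 (chr11:102110265-102110310, plus strand): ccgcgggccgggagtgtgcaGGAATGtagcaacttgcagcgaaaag
AJUBA (chr14:22976876-22976921, minus strand): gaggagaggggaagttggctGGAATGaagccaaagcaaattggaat
AMOTL2 (chr3:134374491-134374536, minus strand): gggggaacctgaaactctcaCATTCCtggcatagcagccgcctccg
AXL (chr19:41226523-41226568, plus strand): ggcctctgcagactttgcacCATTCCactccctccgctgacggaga
A match describes the letters in these windows, and whether TEAD proteins bind there in these cells was not measured.

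The libraries held 14447847 to 16224271 reads assigned to genes. PTPN11 measured 6.01, 6.54 and 7.15 FPKM in silenced cells, against 43.9 to 50.5 FPKM with CPT-11 alone. HMGCS1, a sterol synthesis gene that rises when HMG-CoA reductase is blocked, measured 24.9 to 25.8 FPKM in silenced cells and 101 to 105 FPKM in lovastatin-pretreated cells, against 25.2 to 31.2 FPKM with CPT-11 alone. FPKM are reads per gene divided by its length and a library factor. RN7SL2, an RNA of the signal recognition particle that has near-identical copies in the genome, measured 1469, 1065 and 1230 FPKM in silenced cells, 227 to 346 FPKM in lovastatin-pretreated cells, 37.2, 17.6 and 400 FPKM in CPT-11 replicates 1, 2 and 3, and 71.1 to 155 FPKM in untreated cells. The silenced libraries were above all others, and replicate 3 stood apart among the CPT-11 libraries. On the log2(FPKM + 1) scale RN7SL2 was higher in silenced cells by 4.24 ± 0.84 against CPT-11 (SE, limma, Benjamini-Hochberg adjusted p = 0.0088) and by 3.58 ± 0.84 against untreated cells (adjusted p = 0.0062). For 13284 genes, the deviation of each library from the mean of the 12 libraries was fitted on GC content. Its slope was 0.116 to 0.149 log2 units per 10 percentage points of GC in silenced cells. It was 0.0139 to 0.0809 in lovastatin-pretreated cells, and -0.172, -0.202 and 0.0910 in CPT-11 replicates 1, 2 and 3. In untreated cells it was -0.157 to -0.0109. These slopes are relative to the other libraries. All 7 epithelial markers had reads in every group, and 6 exceeded 1 FPKM in at least 1 library. The other, VIL1, reached 0.144 FPKM at most, and KRT20 reached 1.63 FPKM at most. The sum of the 7 was 577 to 588, 567 to 594 and 514 to 549 FPKM in silenced, lovastatin-pretreated and CPT-11 cells, against 500 to 547 FPKM in untreated cells. Most of it came from KRT8 and KRT18, with group means of 265 to 326 and 163 to 177 FPKM. CDH1 averaged 13.5, 7.73 and 8.27 FPKM in the same 3 treated groups, against 6.90 FPKM in untreated cells. EPCAM averaged 84.7, 63.3 and 68.1 FPKM, against 72.7 FPKM. Of the 6 epithelial markers tested, 5 were called higher and none lower in silenced against untreated cells. In that comparison 18.3% of all genes were called higher and 19.5% lower. Of 6 fibroblast markers 1, COL1A1, exceeded 1 FPKM, and the sum was 5.39 to 6.15, 4.85 to 5.24 and 3.56 to 5.19 FPKM, against 3.20 to 3.95 FPKM in untreated cells. Endothelial and blood markers stayed at or below 0.3 and 0.127 FPKM in sum. The part of RN7SL2 and of these marker levels in the results below was not tested. In bulk RNA, fewer cells of a kind and less RNA per cell cannot be told apart. The labels do not say whether the libraries within a group are separate cultures. P-values then measure only the spread between libraries, which may be technical.

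SHP2-silenced cells had less RNA of all 3 effectors than cells given CPT-11 alone. In mean FPKM, WWTR1 fell by 47.4%, TEAD1 fell by 27.4% and YAP1 fell by 21.3%. The WWTR1 call held in all 22 alternatives, while that of YAP1 was lost in 2 and that of TEAD1 in 1. Neither YAP1 nor WWTR1 passed the test between CPT-11 and untreated cells, while TEAD1 fell to 18.1 ± 2.0 FPKM with CPT-11, against 30.4 ± 1.9 FPKM in untreated cells (SD, n = 3 each). None of the effectors passed the test between lovastatin-pretreated and CPT-11 cells.

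YAP1, the coactivator YAP (ENSG00000137693, chromosome 11, 102110461 to 102233423, plus strand, GRCh38), measured 22.9, 23.5 and 24.7 FPKM in silenced cells, 31.0, 29.8 and 30.3 FPKM in lovastatin-pretreated cells, 30.9, 28.4 and 31.0 FPKM with CPT-11 alone, and 28.6, 29.6 and 30.6 FPKM in untreated cells. Every silenced library was below every other library, and the other 3 groups overlapped. In silenced cells YAP1 fell by 0.33 ± 0.05 against CPT-11 on the log2(FPKM + 1) scale (SE, limma, Benjamini-Hochberg adjusted p = 0.0029), by 0.35 ± 0.05 against lovastatin-pretreated cells (adjusted p = 0.0023) and by 0.31 ± 0.05 against untreated cells (adjusted p = 8.5e-04). The 3 comparisons share the silenced libraries. YAP1 differed by 0.02 between CPT-11 and untreated cells, with a 95% interval of -0.09 to 0.13 (adjusted p = 0.82). After correction for GC content and gene length, the difference from CPT-11 was -0.17 (adjusted p = 0.076) and that from untreated cells -0.14 (adjusted p = 0.096), neither past the threshold of 0.05. That from lovastatin-pretreated cells was then -0.28 (adjusted p = 0.012). With only the silenced and CPT-11 libraries in the fit, the adjusted p against CPT-11 was 0.0529.

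WWTR1, the paralogous coactivator TAZ (ENSG00000018408, chromosome 3, 149517235 to 149736714, minus strand), measured 7.68, 7.62 and 7.69 FPKM in silenced cells. It measured 12.8, 13.0 and 13.6 FPKM in lovastatin-pretreated cells, 15.4, 15.3 and 13.0 FPKM with CPT-11 alone, and 13.7, 14.9 and 14.8 FPKM in untreated cells. The silenced libraries lay far below all others and close to each other. WWTR1 fell by 0.84 ± 0.07 against CPT-11 (adjusted p = 5.3e-05), by 0.71 ± 0.07 against lovastatin-pretreated cells (adjusted p = 1.0e-04) and by 0.84 ± 0.07 against untreated cells (adjusted p = 6.0e-06), calls kept in all 22 alternatives. With the correction for GC content and length the first was -0.62 (adjusted p = 2.5e-06). CPT-11 and untreated cells differed by 0.01, with a 95% interval of -0.14 to 0.15 (adjusted p = 0.96). Lovastatin-pretreated and untreated cells differed by -0.13 (adjusted p = 0.18), with an adjusted p of 0.0448 without CPT-11 replicate 3. The ratio of YAP1 to WWTR1 FPKM was 2.98 to 3.21 in silenced cells, 2.22 to 2.41 in lovastatin-pretreated cells and 1.85 to 2.38 with CPT-11 alone, against 1.99 to 2.09 in untreated cells, so the silenced libraries did not overlap the others.

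TEAD1, a DNA-binding partner of YAP and TAZ (ENSG00000187079, chromosome 11, 12674591 to 12944483, plus strand), measured 13.3, 13.5 and 12.5 FPKM in silenced cells, 13.2, 14.6 and 15.5 FPKM in lovastatin-pretreated cells, 18.9, 19.5 and 15.8 FPKM with CPT-11 alone, and 28.4, 30.6 and 32.3 FPKM in untreated cells. All 9 libraries given CPT-11 were below all untreated libraries. Against untreated cells TEAD1 fell by 1.15 ± 0.08 in silenced cells (adjusted p = 3.7e-06), by 1.03 ± 0.08 in lovastatin-pretreated cells (adjusted p = 9.7e-06) and by 0.72 ± 0.08 with CPT-11 alone (adjusted p = 2.0e-04). These comparisons share the untreated libraries, and each call held in all 22 alternatives. Silenced cells were also below CPT-11 cells, by a change of -0.43 ± 0.08 (adjusted p = 0.0088), which was -0.21 (adjusted p = 0.010) after the GC and length correction and had an adjusted p of 0.0584 with only these 2 groups in the fit. Between neighbours in the order of levels, silenced and lovastatin-pretreated cells differed by -0.13 (adjusted p = 0.44), and lovastatin-pretreated and CPT-11 cells by -0.30 (adjusted p = 0.15). The 3 effectors span 123, 219.5 and 269.9 kb of the genome and have transcripts of 43.5%, 40.9% and 41.3% GC, against 3.2 to 88.5 kb and 43.3% to 56.7% GC for the target genes.

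**Figure D1:**
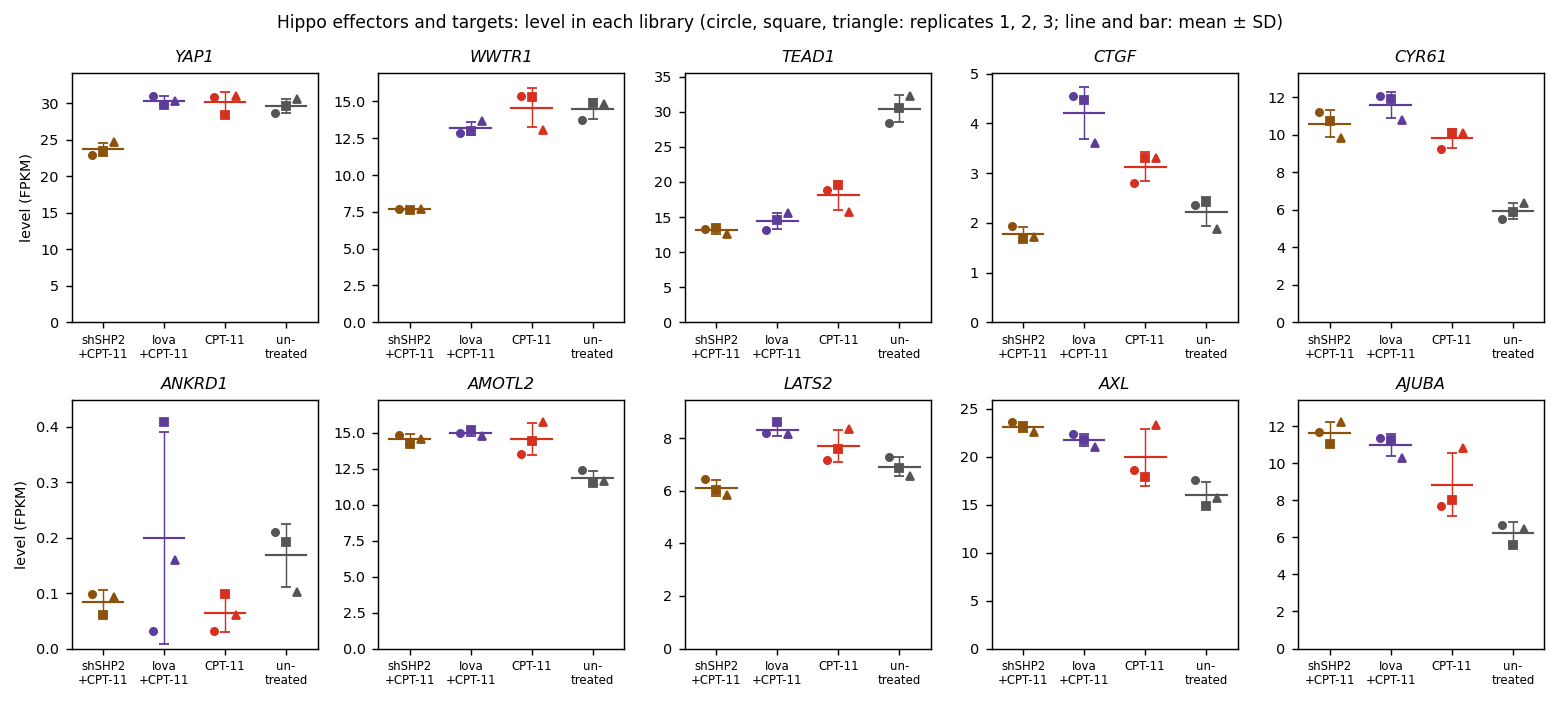
Level of each of the 10 genes in FPKM (vertical axis, from 0, its range set for each gene) in the 12 libraries, with the groups on the horizontal axis; points are libraries, and lines and bars give the mean and SD of 3 libraries. WWTR1 lies at 7.62 to 7.69 FPKM in silenced cells, below every other library, and TEAD1 lies above 28 FPKM in untreated libraries only.

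The share of TEAD1 within its family was lower in every library given CPT-11 than in untreated cells. TEAD1 made up 25.2% to 27.4% of the summed FPKM of TEAD1 to TEAD4 in silenced cells, 28.3% to 32.1% in lovastatin-pretreated cells and 32.04% to 40.2% with CPT-11 alone, against 43.8% to 48.4% in untreated cells. The sum itself was 48.7 to 49.7, 46.6 to 48.8 and 48.5 to 49.2 FPKM in these 3 groups, against 64.8 to 66.7 FPKM in untreated cells. TEAD4 averaged 9.34 ± 0.54 FPKM with CPT-11 alone and 13.3 ± 0.92 FPKM in untreated cells (SD, n = 3 each), a fall by 0.47 ± 0.07 on the log2 scale (adjusted p = 9.5e-04). TEAD2 averaged 8.54 ± 0.60 FPKM with CPT-11 and 10.2 ± 0.18 FPKM in untreated cells, a fall by 0.23 ± 0.06 (adjusted p = 0.029). The TEAD2 call was lost in 9 of 22 alternatives (adjusted p of 0.0508 to 0.132): without untreated replicate 1, 2 or 3 or CPT-11 replicate 2, with voom on the recovered reads, with both scalings to library totals, with only the 2 groups compared and with the replicate number as a block, while that of TEAD4 held in all 22 alternatives. TEAD3 averaged 12.8 ± 1.7 FPKM with CPT-11 and 11.8 ± 0.69 FPKM in untreated cells and did not pass the test.

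**Figure D2:**
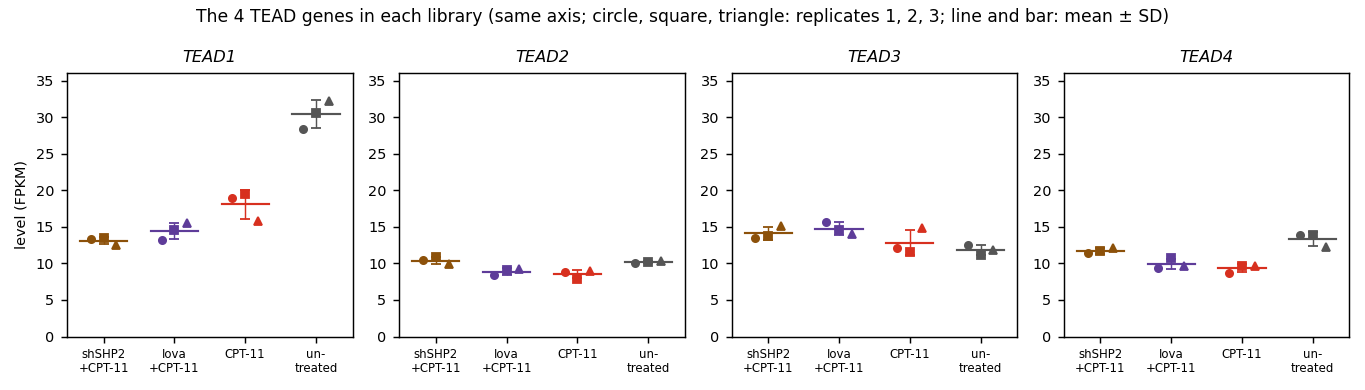
Level of TEAD1, TEAD2, TEAD3 and TEAD4 in FPKM on a common vertical axis, in the 12 libraries grouped along the horizontal axis; points are libraries, and lines and bars give the mean and SD of 3 libraries. TEAD1 stands at 28.4 to 32.3 FPKM in untreated cells and at 12.5 to 19.5 FPKM in the 9 libraries given CPT-11, whereas the other TEAD genes lie between 7.85 and 15.7 FPKM throughout.

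Among the targets, CYR61 was higher in every group given CPT-11 than in untreated cells, by 65.6% with CPT-11 alone. CTGF was highest in lovastatin-pretreated cells and lowest in silenced cells, where it fell by 43.4% against CPT-11 alone. These genes encode matricellular proteins of the CCN family and are the usual readouts of YAP and TEAD activity. ANKRD1, a nuclear ankyrin-repeat protein and the third common readout, was close to absent.

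CTGF (ENSG00000118523, chromosome 6, 131948176 to 131951373, minus strand) measured 1.93, 1.67 and 1.72 FPKM in silenced cells, 4.55, 4.46 and 3.62 FPKM in lovastatin-pretreated cells, 2.80, 3.30 and 3.31 FPKM with CPT-11 alone, and 2.36, 2.43 and 1.88 FPKM in untreated cells, from 65 to 174 reads per library. Silenced and untreated libraries overlapped, and the other groups overlapped with none. CTGF fell by 0.57 ± 0.10 in silenced cells against CPT-11 (adjusted p = 0.0055) and by 0.91 ± 0.10 against lovastatin-pretreated cells (adjusted p = 3.2e-04), and both calls held in all 22 alternatives. Silenced and untreated cells differed by -0.21 (95% interval -0.44 to 0.01, adjusted p = 0.12), and by -0.29 (adjusted p = 0.019) after the GC and length correction. CTGF rose by 0.69 ± 0.10 in lovastatin-pretreated cells against untreated cells (adjusted p = 5.0e-04). It rose by 0.36 ± 0.10 with CPT-11 alone against untreated cells (adjusted p = 0.033), a call lost without CPT-11 replicate 2 or 3 or untreated replicate 1 or 3 (adjusted p of 0.052 to 0.115). Lovastatin-pretreated and CPT-11 cells, the upper neighbours in the order, differed by 0.33 ± 0.10 (adjusted p = 0.16).

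CYR61 (ENSG00000142871, chromosome 1, 85580761 to 85583962, plus strand) measured 11.2, 10.7 and 9.80 FPKM in silenced cells, 12.1, 11.9 and 10.8 FPKM in lovastatin-pretreated cells, 9.23, 10.1 and 10.1 FPKM with CPT-11 alone, and 5.52, 5.88 and 6.37 FPKM in untreated cells. All 9 libraries given CPT-11 were above all untreated libraries. CYR61 rose by 0.74 ± 0.07 in silenced cells (adjusted p = 2.7e-05), by 0.86 ± 0.07 in lovastatin-pretreated cells (adjusted p = 1.1e-05) and by 0.64 ± 0.07 with CPT-11 alone (adjusted p = 1.6e-04), each against the same untreated libraries. Each of these calls held in all 22 alternatives. No difference among the treated groups passed the test, with silenced against CPT-11 cells at 0.10 (95% interval -0.06 to 0.26, adjusted p = 0.34), lovastatin-pretreated against CPT-11 cells at 0.22 (95% interval 0.06 to 0.38, adjusted p = 0.18) and silenced against lovastatin-pretreated cells at -0.12 (adjusted p = 0.38). Without CPT-11 replicate 3 the second was 0.24 (adjusted p = 0.041).

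ANKRD1 (ENSG00000148677, chromosome 10, 90912096 to 90921276, minus strand) had 3, 2 and 3 reads in silenced cells, 1, 13 and 5 in lovastatin-pretreated cells, 1, 3 and 2 with CPT-11 alone, and 6, 6 and 3 in untreated cells. The highest level was 0.408 FPKM, and no difference was tested at this depth.

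AMOTL2 and LATS2 act against YAP and TAZ and are themselves induced by them. AMOTL2, an angiomotin-like junction protein that binds YAP (ENSG00000114019, chromosome 3, 134355874 to 134375479, minus strand), measured 14.9, 14.2 and 14.5 FPKM in silenced cells, 14.99, 15.2 and 14.7 FPKM in lovastatin-pretreated cells, 13.5, 14.4 and 15.7 FPKM with CPT-11 alone, and 12.4, 11.5 and 11.6 FPKM in untreated cells. The untreated libraries were below all others, which overlapped among themselves. AMOTL2 rose by 0.27 ± 0.06 in silenced cells (adjusted p = 0.0038), by 0.32 ± 0.06 in lovastatin-pretreated cells (adjusted p = 0.0023) and by 0.27 ± 0.06 with CPT-11 alone (adjusted p = 0.0086), each against untreated cells. The last had an adjusted p of 0.0937 with only these 2 groups in the fit. Silenced and CPT-11 cells had means of 14.5 FPKM each, with a 95% interval of the difference of -0.13 to 0.13 (adjusted p = 1.00). After the GC and length correction that difference was -0.13 (adjusted p = 0.036).

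LATS2, the kinase that phosphorylates YAP and TAZ (ENSG00000150457, chromosome 13, 20973032 to 21061547, minus strand), measured 6.45, 6.01 and 5.83 FPKM in silenced cells, 8.20, 8.60 and 8.15 FPKM in lovastatin-pretreated cells, 7.18, 7.57 and 8.34 FPKM with CPT-11 alone, and 7.28, 6.85 and 6.57 FPKM in untreated cells. The silenced libraries were below all others. LATS2 fell by 0.39 ± 0.07 in silenced against lovastatin-pretreated cells (adjusted p = 0.0056) and by 0.29 ± 0.07 against CPT-11 cells (adjusted p = 0.016), the second call being lost without silenced replicate 2 or 3 (adjusted p = 0.0577 and 0.0536). Silenced and untreated cells differed by -0.15 ± 0.07 (adjusted p = 0.094), with the same size and an adjusted p of 0.044 without CPT-11 replicate 3 and -0.18 (adjusted p = 0.019) after the GC and length correction. LATS2 rose by 0.24 ± 0.07 in lovastatin-pretreated against untreated cells (adjusted p = 0.022), a call lost without lovastatin replicate 1 or 2 or untreated replicate 2 or 3 (adjusted p of up to 0.0822). CPT-11 and untreated cells differed by 0.14 (adjusted p = 0.20).

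AXL and AJUBA were lowest in untreated cells. AXL, a receptor tyrosine kinase for GAS6 (ENSG00000167601, chromosome 19, 41219203 to 41261766, plus strand), measured 23.6, 23.1 and 22.5 FPKM in silenced cells, 22.4, 21.8 and 21.0 FPKM in lovastatin-pretreated cells, 18.6, 17.9 and 23.3 FPKM with CPT-11 alone, and 17.5, 14.9 and 15.7 FPKM in untreated cells. CPT-11 replicate 3 lay with the silenced libraries and the other CPT-11 libraries lay just above the untreated ones. AXL rose by 0.50 ± 0.09 in silenced cells (adjusted p = 0.0013) and by 0.42 ± 0.09 in lovastatin-pretreated cells (adjusted p = 0.0051) against untreated cells. With CPT-11 alone it rose by 0.29 ± 0.09 against untreated cells (adjusted p = 0.046), but this was 0.18 (adjusted p = 0.060) without CPT-11 replicate 3, and the call was lost in 10 of 12 fits that left out 1 library. Silenced and CPT-11 cells differed by 0.21 (adjusted p = 0.11), and by 0.32 (adjusted p = 0.0019) without CPT-11 replicate 3. An antisense gene that overlaps AXL, AC011510.1, had 135 reads in all libraries together, against 19826 for AXL, which was the largest share among features that overlap the 10 genes.

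AJUBA, a LIM-domain scaffold that binds LATS kinases and restrains them (ENSG00000129474, chromosome 14, 22971174 to 22982642, minus strand), measured 11.7, 11.01 and 12.2 FPKM in silenced cells, 11.4, 11.3 and 10.3 FPKM in lovastatin-pretreated cells, 7.70, 8.01 and 10.8 FPKM with CPT-11 alone, and 6.68, 5.59 and 6.44 FPKM in untreated cells. Untreated libraries were below all others, and CPT-11 replicate 3 again lay above its group. AJUBA rose by 0.81 ± 0.11 in silenced cells (adjusted p = 2.3e-04), by 0.73 ± 0.11 in lovastatin-pretreated cells (adjusted p = 5.7e-04) and by 0.43 ± 0.11 with CPT-11 alone (adjusted p = 0.020), each against untreated cells. The last call was lost without untreated replicate 2 (adjusted p = 0.0804) and measured 0.29 (adjusted p = 0.017) without CPT-11 replicate 3. Silenced cells were above CPT-11 cells by 0.37 ± 0.11 (adjusted p = 0.034), a call lost without CPT-11 replicate 1 or 2 or any 1 of the silenced libraries (adjusted p of up to 0.132). Silenced and lovastatin-pretreated cells differed by 0.08 (adjusted p = 0.74).

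Of the 9 genes tested, 5 were higher (CTGF, CYR61, AMOTL2, AXL and AJUBA) and 1 lower (TEAD1) with CPT-11 alone against untreated cells, where 16.6% of all 18047 genes tested were called (8.85% higher and 7.72% lower). The median of the 9 log2 differences was 0.27, against -0.01 over all genes. With only these 2 groups in the fit 2 were called (TEAD1 and CYR61), where 6.38% of all genes were called. In lovastatin-pretreated against untreated cells 6 were higher (the same 5 and LATS2) and 1 lower (TEAD1), with 29% of all genes called (14.7% higher and 14.3% lower). In silenced against untreated cells 4 were higher (CYR61, AMOTL2, AXL and AJUBA) and 3 lower (YAP1, WWTR1 and TEAD1), with 37.8% of all genes called (18.3% higher and 19.5% lower). In silenced cells against CPT-11 alone 1 was higher (AJUBA) and 5 lower (YAP1, WWTR1, TEAD1, CTGF and LATS2). In that comparison 22% of all genes were called (10% higher and 12% lower). The median was -0.29 over the 9 and 0.00 over all genes. With only these 2 groups in the fit 2 were called (WWTR1 and CTGF), where 2.5% of all genes were called. In silenced against lovastatin-pretreated cells 4 were lower (YAP1, WWTR1, CTGF and LATS2), with 6.84% of all genes called (2.58% higher and 4.26% lower).

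Between lovastatin-pretreated and CPT-11 cells limma called 0 of the 9 genes, where 0.465% of all genes were called (0.393% higher and 0.072% lower). At an unadjusted p under 0.05 the count was 4, but the share of all genes at that threshold was not counted, so it cannot be weighed. The fit with voom on the recovered reads also called 0 of the 9, where it called 0.781% of all genes. The largest differences were 0.33 for CTGF, -0.30 for TEAD1, 0.29 for AJUBA and 0.22 for CYR61. Without CPT-11 replicate 3, 6 of the 9 were called, 4 higher and 2 lower: CTGF 0.36, CYR61 0.24, AXL 0.24, AJUBA 0.43, WWTR1 -0.21 and TEAD1 -0.39. In that fit 30.5% of all genes were called. YAP1 differed by 0.01 between these groups, with a 95% interval of -0.10 to 0.13.

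**Figure D3:**
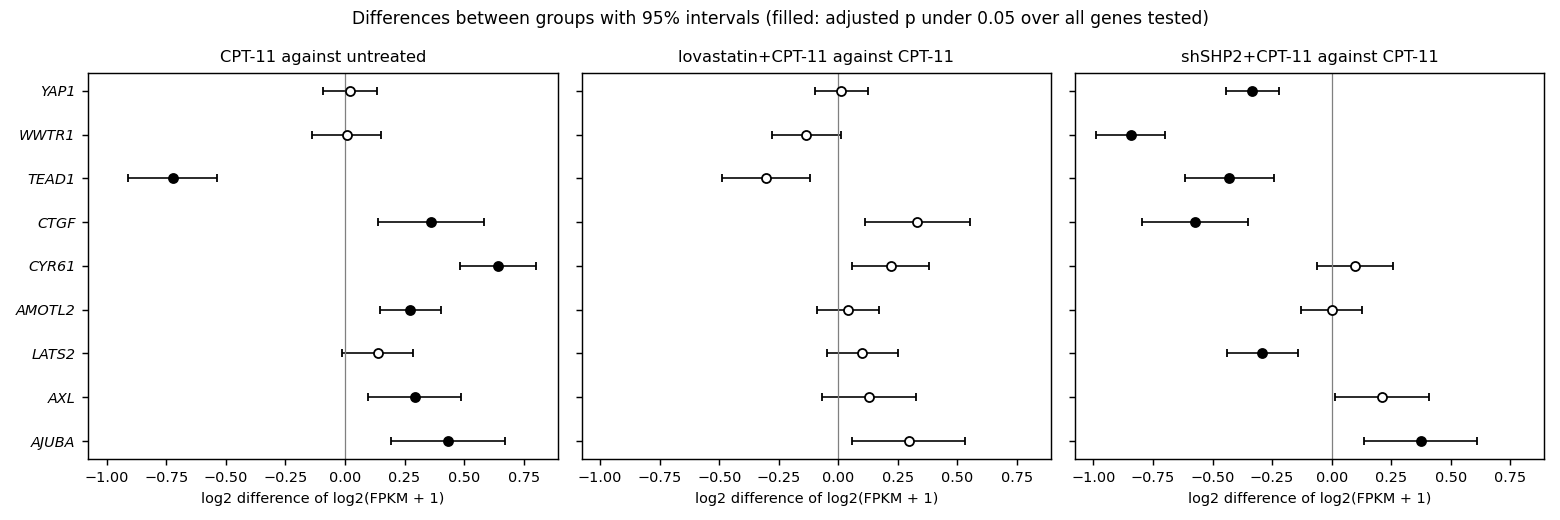
Log2 difference of log2(FPKM + 1) (horizontal axis) with its 95% interval for the 9 genes tested (vertical axis) in CPT-11 against untreated, lovastatin+CPT-11 against CPT-11, and shSHP2+CPT-11 against CPT-11; filled points had an adjusted p under 0.05 over all genes. TEAD1 is at -0.72 and CYR61 at 0.64 in the first panel, and WWTR1 at -0.84 and CTGF at -0.57 in the last.

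The rest of the pathway was counted by role. The other 16 genes of a published signature of YAP/TAZ targets, 15 of which were tested, did not move one way. In CPT-11 against untreated cells 3 were higher and 2 lower, with a median of 0.12, where 16.6% of all genes were called. GADD45A, a stress gene induced by DNA damage, averaged 53.0 ± 10.1 FPKM with CPT-11 and 29.8 ± 2.8 FPKM in untreated cells (SD, n = 3 each) and rose by 0.80 ± 0.12 (adjusted p = 8.8e-04). In silenced against CPT-11 cells 1 was higher and 4 were lower, with a median of -0.02, where 22% of all genes were called. NT5E, the ectonucleotidase CD73, measured 14.2, 14.96 and 13.7 FPKM in silenced cells, against 32.04, 31.1 and 26.2 FPKM with CPT-11 alone. It fell by 1.00 ± 0.08 (adjusted p = 4.8e-05), and by 0.98 ± 0.08 against lovastatin-pretreated cells (adjusted p = 3.1e-05), both calls held in all 22 alternatives. PTPN14, a phosphatase that binds YAP, fell by 0.39 ± 0.07 in silenced against CPT-11 cells (adjusted p = 0.0063). The 1 gene called higher was FJX1, at 0.57 ± 0.14 (adjusted p = 0.019), a call lost without CPT-11 replicate 1 or 2 or silenced replicate 1 or 2 and after the GC and length correction. Leaving out 1 library at a time, the list had 1 to 6 genes called in CPT-11 against untreated cells, the 1 being without untreated replicate 1 (12.7% of all genes called in that fit) and the 6 without CPT-11 replicate 3 (24.6%). It had 2 to 8 in silenced against CPT-11 cells. The 8 came without CPT-11 replicate 3, where 43.7% of all genes were called, and the 2 without CPT-11 replicate 1 or 2 or silenced replicate 1 or 2, where 5.74% to 7.93% were, so the count of the list moved with the count over all genes.

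Of 15 upstream kinases and adaptors, all tested, 7 were lower and 1 higher in silenced against CPT-11 cells, with a median of -0.27, where 12% of all genes were lower and 10% higher. SAV1, the scaffold of the MST kinases, averaged 12.5 FPKM in silenced cells and 16.4 FPKM with CPT-11 and fell by 0.36 ± 0.06 (adjusted p = 0.0048). FRMD6, a FERM-domain protein upstream of the kinases, fell by 0.36 ± 0.07 (adjusted p = 0.0075) and MOB1B, a LATS coactivator, by 0.37 ± 0.08 (adjusted p = 0.012). TAOK2, the 1 called higher, had a difference of 0.30 ± 0.10 (adjusted p = 0.0498), lost in 11 of 12 fits without 1 library. The count of 8 was 3 after the GC and length correction, in which 18.2% of all genes were called and FRMD6 (adjusted p = 0.389) and MOB1B (adjusted p = 0.339) were no longer called. It was 13 without CPT-11 replicate 3 (43.7% of all genes) and 2 without CPT-11 replicate 1 or 2 (5.74% and 6.39%), and between these without any other library. Against untreated cells, limma and voom called 0 of the 15 with CPT-11 alone, where they called 16.6% and 17.9% of all genes. At an unadjusted p under 0.05 the count was 3, and the share of all genes at that threshold was not counted. Without CPT-11 replicate 3, 4 were called, where 24.6% of all genes were, and with the GC and length correction 3 were, where 25.5% of all genes were.

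Of 6 other TEAD and Vestigial-like genes, 5 were tested. The Vestigial-like proteins compete with YAP and TAZ for TEAD. In silenced against CPT-11 cells 3 were higher and none lower, where 10% of all genes were higher and 12% lower. The 3 were TEAD2 by 0.26 ± 0.06 (adjusted p = 0.020), TEAD4 by 0.30 ± 0.07 (adjusted p = 0.015) and VGLL4 by 0.30 ± 0.08 (adjusted p = 0.029). The TEAD2 and TEAD4 calls were lost after the GC and length correction (adjusted p = 0.668 and 0.825), and all 3 calls were lost without CPT-11 replicate 1 or silenced replicate 2 and with only the 2 groups compared. The VGLL4 call was also lost without CPT-11 replicate 2 or either other silenced library, with no filter on low values and with the replicate block (adjusted p of 0.0501 to 0.115). With 1 library left out the list had 0 to 4 calls, the 4 being without CPT-11 replicate 3, where 43.7% of all genes were called. Against untreated cells VGLL4 rose by 0.44 ± 0.08 in silenced cells (adjusted p = 0.0017).

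Of 7 angiomotin, AJUBA-family and junction genes, all tested, PARD3, a polarity protein of the tight junction complex, fell by 0.59 ± 0.08 with CPT-11 alone (adjusted p = 6.8e-04), where it averaged 6.34 ± 0.54 FPKM, against 10.02 ± 0.83 FPKM in untreated cells. PARD3 was the only gene of the list called in that comparison, where 16.6% of all genes were called. In silenced against CPT-11 cells 2 were lower and none higher, where 12% of all genes were lower and 10% higher. The 2 were AMOTL1, an angiomotin paralogue, by a change of -0.31 ± 0.06 (adjusted p = 0.0061) and TJP1, the tight junction protein ZO-1, by -0.39 ± 0.09 (adjusted p = 0.013), a call lost without CPT-11 replicate 1 or 2. That list had 1 to 4 calls when 1 library was left out, the 4 being in the same fit without CPT-11 replicate 3, where 43.7% of all genes were called. In lovastatin-pretreated against CPT-11 cells limma and voom called 0 genes in each of these 4 lists, where they called 0.465% and 0.781% of all genes. At an unadjusted p under 0.05 the counts were 8, 4, 0 and 1 for the signature, kinase, TEAD and junction lists. The share of all genes at that unadjusted threshold was not counted, so these counts cannot be weighed. Without CPT-11 replicate 3 the calls were 6, 6, 2 and 2 in the same lists, where 30.5% of all genes were called.

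**Figure D4:**
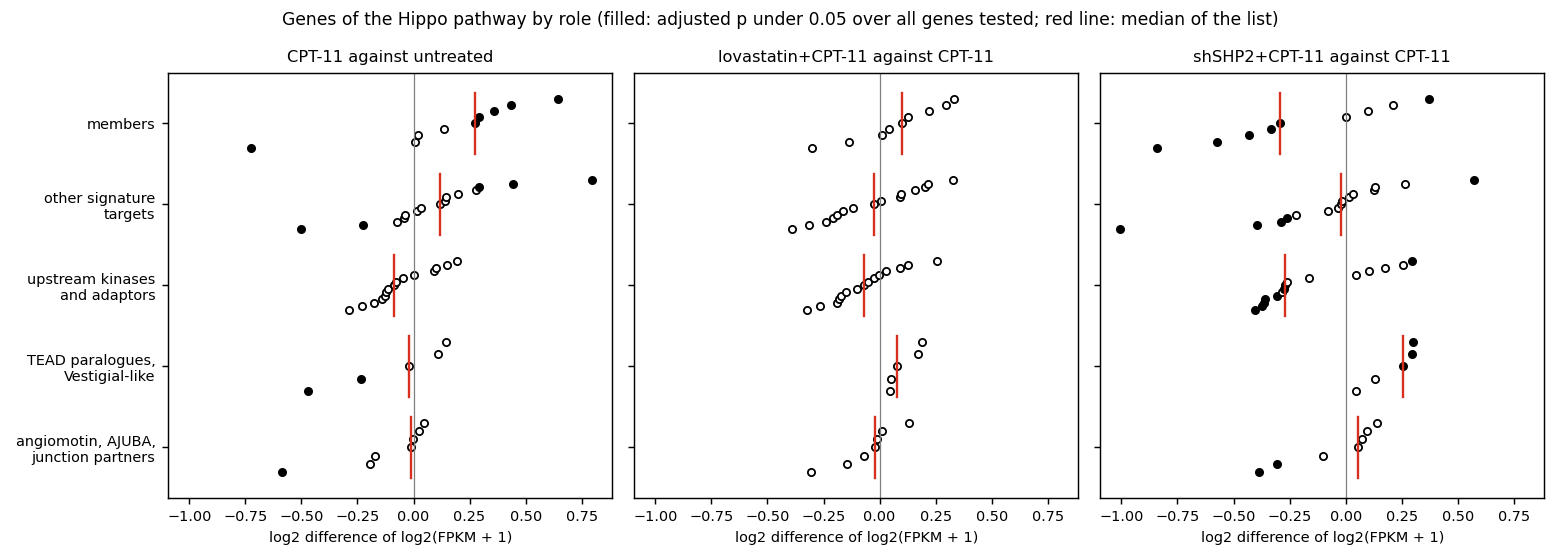
Log2 difference of log2(FPKM + 1) (horizontal axis) of each tested gene in 5 lists of the pathway (vertical axis), in the same 3 comparisons; filled points had an adjusted p under 0.05 over all genes, and the red line marks the median of the list. The medians of the upstream kinases are -0.09, -0.07 and -0.27 in the 3 panels.

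Over the 12 libraries, the genes whose log2(FPKM + 1) followed YAP1 most closely among 7294 protein-coding genes were FAM3C (Pearson r = 0.96), TMEM167A (0.95) and VCP (0.95). FAM3C averaged 48.7, 68.1 and 65.1 FPKM in silenced, lovastatin-pretreated and CPT-11 cells, against 65.4 FPKM in untreated cells. Those closest to CYR61 were HES2 (r = 0.98), SCNN1A (0.98) and RETSAT (0.98). HES2 averaged 14.3, 15.6 and 11.95 FPKM in the same 3 treated groups, against 4.997 FPKM in untreated cells. The points of these correlations share 4 groups, library depth and GC slope, and the values are given as a description.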

How the data were processed

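RNA of 12 HCT-116 libraries was sequenced. The authors deposited FPKM values for 59172 features. Tools in the submitters' processing notes are featureCounts 1.5.0-p3, HISAT2 2.0.5, DESeq2 1.16.1 and StringTie 1.3.3b, with hg19 as build, but all 58735 Ensembl features carry the coordinates of GENCODE release 29 (GRCh38). The sources used here do not say whether counting used strand, so it is not known how well reads of a gene and of its antisense partner were kept apart. FPKM multiplied by gene length was a whole multiple of a step per library for 100% of values (within 0.01 read), which gave the reads. That scaling sets each library to its typical gene, so a shift shared by all genes would not show.

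Groups were compared with limma 3.58.1 (R 4.3.3) on log2(FPKM + 1) with a variance trend, all 12 libraries in the fit, and Benjamini-Hochberg adjustment over 18047 genes with at least 10 reads in at least 3 libraries and at least 15 in total. A difference is on that log2 scale, which understates changes of low genes. Calls have an adjusted p under 0.05. The groups share 1 estimate of the spread per gene, so the fit takes their spread as equal. Root mean square deviations from the group mean were 0.138, 0.167 and 0.220 in CPT-11 replicates 1, 2 and 3. They were 0.102 to 0.113 in silenced, 0.113 to 0.129 in lovastatin-pretreated and 0.118 to 0.142 in untreated libraries. There were 22 alternatives: pseudocounts of 0.1 and 5, 2 other filters, only the 2 groups compared, replicate block, 2 other scalings, voom on the recovered reads, 12 fits that each left out 1 library, and a correction of each library for GC content and length (loess, span 0.3), added after the data were seen. GC content came from GENCODE transcripts and was known for 98.5% of tested genes.

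The members and lists were chosen with earlier results of these data known. All 10 members were named in the text, and of each other list at most 4 genes per comparison with the smallest p, plus any gene alone in its direction. For likeness, the 3 genes with the highest Pearson r were named, among protein-coding genes with a mean of at least 5 FPKM.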

Additional observations from a re-analysis of the deposited data

How the results depend on the processing

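For the 9 genes tested, 1188 differences were recomputed under the alternatives. Of these, 1133 stayed on their side of the threshold, 43 lost the call and 12 gained one. No called difference changed sign, and 14 of the 1133, not called in either fit, did. The count of genes called in CPT-11 against untreated cells was 3 with no filter on low values and 2 (TEAD1 and CYR61) with only the 2 groups compared in the fit, where 4.84% and 6.38% of all genes were called. In silenced against CPT-11 cells it was 2 (WWTR1 and CTGF) with only the 2 groups compared, where 2.5% of all genes were called, and the signature, kinase, TEAD and junction lists then had 1, 0, 0 and 0 calls. The cause was not tested. Leaving out 1 library at a time, the count was 4 to 5 in CPT-11 against untreated cells, 4 to 7 in silenced against CPT-11 cells, 4 to 4 in silenced against lovastatin-pretreated cells, 6 to 8 in lovastatin-pretreated against untreated cells and 7 to 8 in silenced against untreated cells. The shares of all genes called in these fits were 10.7% to 24.6%, 5.74% to 43.7%, 3.3% to 13.7%, 21% to 37.8% and 28.5% to 45.9%, in the same order. In lovastatin-pretreated against CPT-11 cells the count was 0 to 6. The 6 came without CPT-11 replicate 3, where 30.5% of all genes were called, against 0.228% to 0.45% without any other library. Of the other pathway genes, MOB1A, a LATS coactivator and 1 of the 7 kinase-list genes called lower in silenced against CPT-11 cells, had a difference of 0.0028 (adjusted p = 0.962) with the GC and length correction and -0.28 (adjusted p = 0.042) without it. The cause was not tested. Scaling to library totals gave shares of higher calls among all genes called of 65.5% in CPT-11 against untreated cells and 59.1% in silenced against CPT-11 cells, where the deposited scaling gave 53.4% and 45.4%, with medians over all genes moved by under 0.1. Same-numbered libraries did not stand out in their deviations from the group means, with correlations of -0.390 to 0.176, 2 of 18 over 0.1. A library correlated highest with its own number in 12 of 36 cases, with 3 libraries to choose from in each. The GC slopes of the libraries enter these correlations, and whether same-numbered libraries shared a culture or batch was not tested. With the replicate block in the fit, the counts were 5, 0, 5, 4, 7 and 7 in the 6 comparisons, in the order CPT-11 against untreated, lovastatin-pretreated against CPT-11, silenced against CPT-11, silenced against lovastatin-pretreated, lovastatin-pretreated against untreated and silenced against untreated. The shares of all genes called were then 12.6%, 0.255%, 13.1%, 4.27%, 24.9% and 33.7%, in that order. The calls lost were AXL in CPT-11 against untreated cells (adjusted p = 0.0723) and AJUBA in silenced against CPT-11 cells (adjusted p = 0.0509), and the block changed no other call of the 9 genes. Of the other genes named, TEAD2 in CPT-11 against untreated cells (adjusted p = 0.0660) and VGLL4 (0.0501), TAOK2 (0.0824) and MOB1A (0.0728) in silenced against CPT-11 cells lost their calls. The signature list then had 2 calls in CPT-11 against untreated cells and the kinase list 5 in silenced against CPT-11 cells, where 12.6% and 13.1% of all genes were called. A gene near the depth limit, such as ANKRD1 with 1 to 13 reads, could not be compared.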
